A study of Rattus norvegicus with 20 samples.

Results

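The axon guidance ligands and receptors form a set of 71 protein coding genes, 36 ligands and 35 receptors, among the 30443 genes (22075 protein coding) listed for each library. Members were taken by name: the semaphorins, plexins, ephrins A and B with their Eph receptors, slits and Robo receptors, and Nrp1, Nrp2, Ntn1, Ntn3, Ntn4, Ntng1, Ntng2, Dcc, Neo1 and Unc5a to Unc5d. The naming rule used no measured value, but it was set with earlier results of these data known. The samples came from 4 adult female wild-type Long-Evans rats, an outbred strain, aged 6 to 8 months. Every animal received a C4 hemi-contusion of the cervical cord (0.7 mm displacement). An array of electrodes was implanted 2 weeks later, with wires that penetrated the contralateral motor cortex. In 2 animals the cortex was stimulated for 1 week (10 Hz, 5 hours per day, cycles of 5 minutes on and 2 minutes off, 80% of the movement threshold). The 2 control animals carried the same injury and implant and received no current, so no library is from an uninjured or unimplanted rat. From each animal, 5 regions gave 20 RNA-seq libraries: subcortical white matter under the array (region 1), its counterpart in the opposite hemisphere (region 2), and cervical cord rostral to the lesion (region 3, about C2 to C4), at the lesion (region 4) and caudal to it (region 5).

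Guidance molecules steer growing axons and, in the adult, are also expressed by glia, vessels and immune cells. Class 3 semaphorins are secreted and act through neuropilin and plexin complexes, whereas the membrane semaphorins of classes 4 to 7 mostly bind plexins directly. Ephrins A are held in the membrane by a lipid anchor and ephrins B span it, and both signal to and from Eph receptor tyrosine kinases. Slits repel axons through Robo receptors, and netrins attract through Dcc and Neo1 or repel through Unc5 receptors. After spinal injury these families are studied because several of them can limit axon regrowth.

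Expression was measured as FPKM, read fragments scaled to transcript length and to the mapped total of the library, with 0.1 as the lowest value listed. Genes were tested where at least 1 library reached 1 FPKM, which kept 15210 genes, 67 of them members (35 ligands and 32 receptors). The other 4 members, Efna4, Epha1, Epha2 and Robo4, stayed under 1 FPKM in all 20 libraries. FPKM keep no read numbers, so the depth behind a gene is unknown. In bulk tissue, fewer cells of a type and less RNA per cell cannot be told apart. Differences are given as log2 fold changes of FPKM from limma, with p-values adjusted over all genes tested and 0.05 as the threshold. Animals are the replicates, and each of the 4 animals supplied a library to every region. The main fits of the region comparisons had no term for the animal and took each library as a separate value. Their p-values therefore rest on libraries, and fits that take account of the animal were run as alternatives.

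Marker genes were compared with the labels. The white matter blocks were dissected without cortex according to the labels, yet 5 cortical neuron markers summed to 260.5 to 382.6 FPKM in regions 1 and 2, against 3.39 to 17.3 in the cord. Slc17a7, the vesicular glutamate transporter of cortical neurons, was at 225 to 329 FPKM there. The 6 oligodendrocyte markers summed to 671 to 2805 FPKM in the white matter blocks and 7134 to 10407 in the cord. In the white matter blocks, 2 of 6 spinal neuron markers, Pax2 and Lbx1, were listed at 0.1 in all 8 libraries. Slc6a5, the glycine transporter of inhibitory neurons, was at 0.576 to 4.10 FPKM in region 1 and 0.169 to 0.252 in region 2, against 26.1 to 40.0 in the cord, and it and Glra1 were higher in region 1 than in region 2. The region 1 library of stimulated animal 1 had the largest sum of 5 striatal neuron markers, 108.1 FPKM against 18.3 to 39.7 in the other 19 libraries. In region 2, the sum of 7 microglia and macrophage markers was 261.7 FPKM in stimulated animal 2 and 50.3 to 57.6 in the other 3 animals. The sums of fibroblast and astrocyte markers in region 2 were also highest in that animal. Neurod2, Pecam1 and Foxj1 of the marker lists were not analysed here, and Col1a2 was listed at 0.1 in every library.

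The levels of the set spanned a wide range, as the heat map shows. In the white matter blocks, the most abundant members by mean FPKM were Sema7a (37.8 ± 4.25, SD, n = 8 libraries), Epha4 (37.2 ± 4.43), Ephb6 (30.1 ± 2.96) and Robo2 (23.2 ± 1.80). Sema7a is a lipid-anchored semaphorin that binds Plxnc1 and integrins. In the cord, the order was Sema4d (42.5 ± 9.73, SD, n = 12 libraries), Sema7a (30.8 ± 3.77), Sema6d (21.4 ± 1.65) and Neo1 (16.5 ± 1.29). The means of Sema7a and Epha4 in the white matter blocks differed by less than their SD, and in the cord Sema4d lay above Sema7a by more than the SD of either. Within families, the highest means over all libraries were those of Sema3c, Sema7a, Efna3, Efnb2, Slit1, Ntn1, Ntng1, Nrp1, Plxnb2, Epha4, Ephb6, Robo2 and Neo1.

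**Figure D1:**
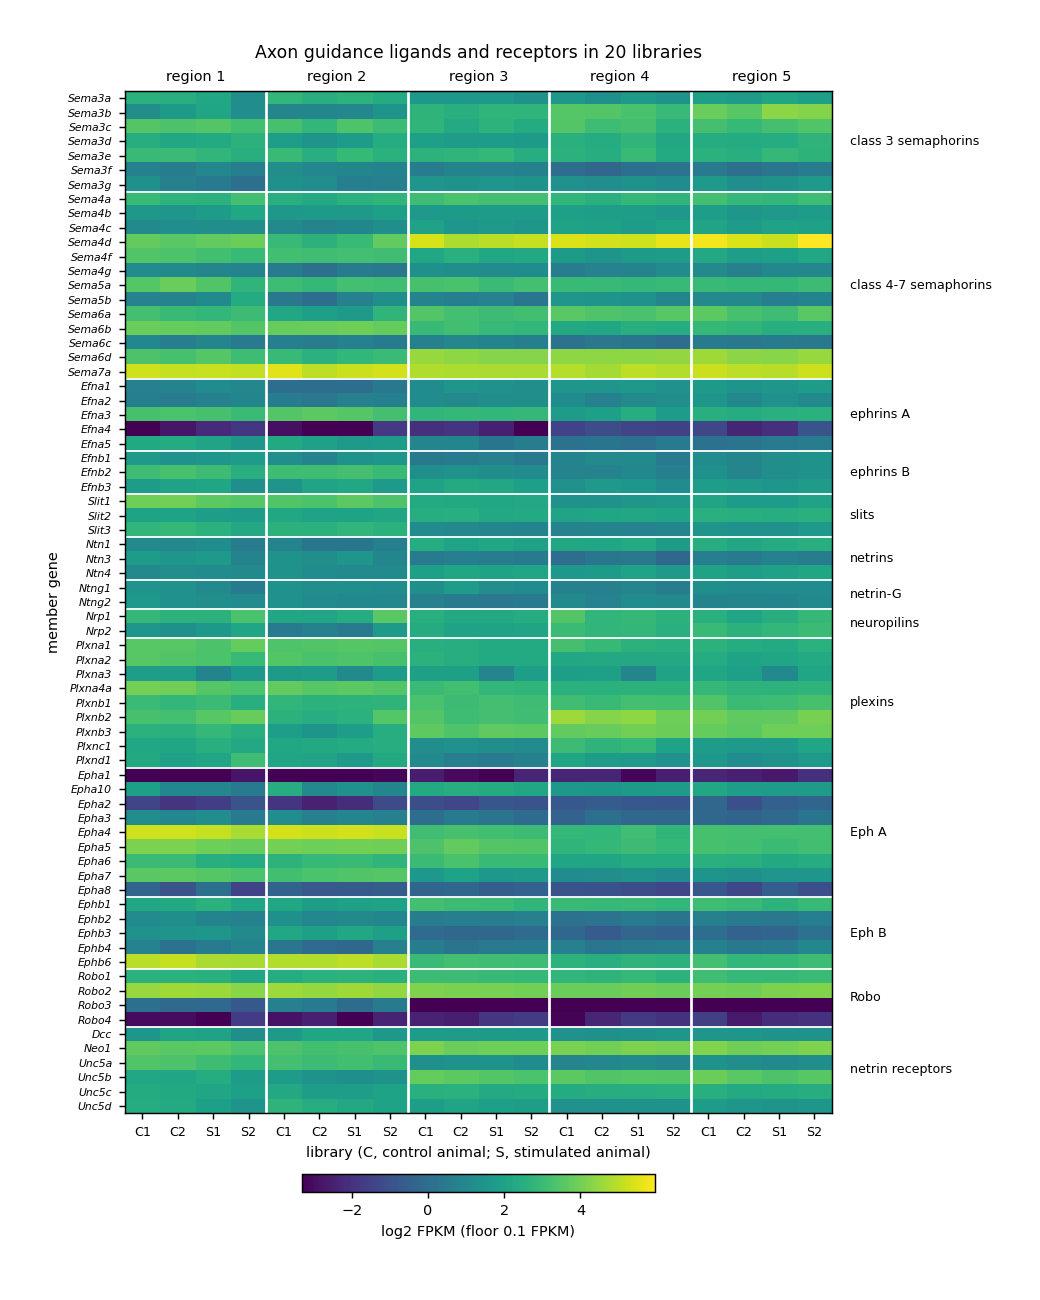
Log2 FPKM of the 71 members (rows, by family) in 20 libraries (columns, by region, C control and S stimulated animals), with 0.1 FPKM as the lowest value. Epha4 and Ephb6 are bright in regions 1 and 2 and Sema4d in regions 3 to 5, while Robo3 is at the lowest value in all 12 cord libraries.

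Promoter windows of 4 receptors are printed because these genes are among the largest differences between the tissues described next. Ephb6 and Ephb3 were higher in the white matter blocks, and Unc5b and Plxnb3 were higher in the cord. The windows are RefSeq sequence of the build GRCr8, a later build than the Rnor_6.0 of the deposited values, and run from 250 bases before to 50 bases after the start of the gene, 5′ to 3′ on its own strand. They lie at chr4:71458382-71458681 (plus strand, Ephb6), chr11:93363726-93364025 (minus strand, Ephb3), chr20:29307221-29307520 (minus strand, Unc5b) and chrX:156646624-156646923 (plus strand, Plxnb3). Capitals mark matches on either strand to GGGCGG (GC box), the CCAAT box, the E box CAGCTG, the SOX factor motif ACAAAG or the TATA box motif TATAAA, and in Ephb3 the first run of capitals is a GGGCGG match on the other strand that overlaps a CCAAT match.
Ephb6: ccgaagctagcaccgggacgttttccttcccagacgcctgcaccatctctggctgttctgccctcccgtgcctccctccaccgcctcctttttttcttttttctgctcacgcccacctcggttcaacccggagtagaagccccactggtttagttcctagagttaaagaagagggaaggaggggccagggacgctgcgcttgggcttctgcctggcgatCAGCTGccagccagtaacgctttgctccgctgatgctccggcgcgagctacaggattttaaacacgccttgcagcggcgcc
Ephb3: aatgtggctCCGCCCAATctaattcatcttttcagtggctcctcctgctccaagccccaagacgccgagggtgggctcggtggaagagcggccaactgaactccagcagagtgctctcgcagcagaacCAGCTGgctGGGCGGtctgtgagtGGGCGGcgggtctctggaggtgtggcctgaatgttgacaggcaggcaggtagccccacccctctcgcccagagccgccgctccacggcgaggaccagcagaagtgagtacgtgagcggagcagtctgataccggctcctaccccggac
Unc5b: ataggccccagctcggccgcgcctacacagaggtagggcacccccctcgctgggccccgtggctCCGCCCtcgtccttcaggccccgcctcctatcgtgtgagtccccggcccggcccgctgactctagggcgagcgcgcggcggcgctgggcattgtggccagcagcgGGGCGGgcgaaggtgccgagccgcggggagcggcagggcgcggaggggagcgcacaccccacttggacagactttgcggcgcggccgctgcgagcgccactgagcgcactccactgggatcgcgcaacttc
Plxnb3: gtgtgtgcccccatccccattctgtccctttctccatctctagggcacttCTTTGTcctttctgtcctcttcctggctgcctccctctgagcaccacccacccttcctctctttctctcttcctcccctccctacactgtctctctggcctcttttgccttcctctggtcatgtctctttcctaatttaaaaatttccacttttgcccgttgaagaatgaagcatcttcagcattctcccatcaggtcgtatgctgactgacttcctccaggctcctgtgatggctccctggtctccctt
Of the 71 members, 55 matched 1 promoter window by symbol. GGGCGG stood in 30 of these 55 windows, against 41.8% of the 21851 windows of protein coding genes. CCAAT stood in 19 of 55 (38.0% of all windows), CAGCTG in 13 (15.3%), ACAAAG in 7 (16.5%) and TATAAA in 0 (13%). The matched members included 26 that were higher in the white matter blocks and 16 that were lower. Among the 26, GGGCGG stood in 12, CCAAT in 10, CAGCTG in 6 and ACAAAG in 1, and among the 16 the numbers were 11, 3, 6 and 4. The GC content of the 4 printed windows was 59.7% for Ephb6, 63.7% for Ephb3, 74.3% for Unc5b and 52% for Plxnb3, and the median was 63.7% over the 55 members and 55% over all windows. A match is a description of letters and was not tied to binding here.

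The first comparison set the white matter blocks (regions 1 and 2, 8 libraries) against the cervical cord (regions 3, 4 and 5, 12 libraries). Of the 67 members tested, 33 were higher and 23 lower in the white matter blocks, where 25% of all genes tested were higher and 47.1% lower. Over the members the median log2 fold change was 0.20, and it was -0.18 over all genes. Quantile normalization moved the median of all genes to -0.04 and gave 36 members higher and 21 lower, beside 33.2% and 39.6% of all genes. In 20 members the lowest white matter value exceeded the highest cord value and in 10 the reverse held, against 10.3% and 16.8% of all genes. Among ligands, 15 of 35 were higher and 13 lower, and among receptors 18 of 32 were higher and 10 lower.

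Among the ligands higher in white matter blocks, Efnb2, a transmembrane ephrin, was at 5.85, 8.48 and 9.69 FPKM (lowest, median, highest) against 1.66, 2.31 and 2.74 in the cord (difference 1.91 on the log2 scale with SE 0.09, adjusted p = 4.42e-13 by limma). Slit1, a secreted ligand of Robo receptors made mainly by neurons, was at 10.2, 11.8 and 15.7 against 2.67, 3.79 and 5.15, a log2 fold change of 1.68. Slit3 changed in the same direction, by 1.54 on the log2 scale, whereas Slit2 had a log2 fold change of -0.32 (limma adjusted p = 1.30e-05). Neither Slit1 nor Slit3 overlapped between the tissues, while the ranges of Slit2 did. Efna5 (log2 fold change 1.57), Sema4f (1.16) and Sema6b (1.10) were also higher without overlap.

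Ligands lower in the white matter blocks were led by semaphorins. Sema3b, a secreted class 3 semaphorin, was at 1.85, 2.38 and 4.37 FPKM (lowest, median, highest) in the white matter blocks and at 5.85, 10.4 and 20.6 in the cord (difference -2.0 on the log2 scale with SE 0.13, adjusted p = 8.40e-11 by limma). Sema4d, a membrane semaphorin of oligodendrocytes and immune cells that binds Plxnb1, was at 6.21, 12.6 and 14.8 against 28.0, 40.9 and 62.4 (difference -1.97 on the log2 scale with SE 0.12, adjusted p = 4.48e-11 by limma). Sema6d, which binds Plxna1, was at 6.13, 8.21 and 11.4 against 19.5, 20.8 and 24.8, a log2 fold change of -1.33. Ntn1, the netrin that attracts commissural axons, was at 1.22, 1.70 and 2.29 against 3.34, 4.65 and 5.61, a log2 fold change of -1.48. All 4 ligands were lower in every white matter library than in any cord library. Counted by family, 3 of 7 class 3 semaphorins were higher and 2 lower, 4 of 13 class 4 to 7 semaphorins were higher and 6 lower, 2 of 4 ephrins A were higher and 2 lower, 2 of 3 ephrins B were higher, and 2 of 3 netrins were lower and 1 higher.

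Eph receptors made up 4 of the 6 receptors with the largest rise. Epha4, which binds ephrins of both classes, was at 27.3, 38.4 and 41.6 FPKM (lowest, median, highest) in the white matter blocks and at 6.74, 8.84 and 9.69 in the cord (difference 2.12 on the log2 scale with SE 0.07, adjusted p = 9.32e-16 by limma). Ephb6, an Eph receptor without kinase activity, was at 26.9, 29.4 and 35.2 against 5.66, 7.71 and 9.18 (difference 2.00 on the log2 scale with SE 0.06, adjusted p = 1.17e-15 by limma). Ephb3 was at 2.12, 3.46 and 4.76 against 0.642, 0.861 and 1.12, a log2 fold change of 1.95. Epha7 was at 8.83, 11.1 and 12.2 against 2.27, 2.83 and 4.14, a log2 fold change of 1.94. None of the 4 overlapped between the tissues. By family, 5 of 7 EphA receptors were higher and 1, Epha10, was lower, and 3 of 5 EphB receptors were higher and 1, Ephb1, was lower. Epha10 was at 3.82 and 5.50 FPKM in regions 1 and 2 of control animal 1 and at 1.44 to 2.60 in the other 6 white matter libraries. Its log2 fold change was -0.70 with SE 0.18 (adjusted p = 0.00177 by limma), with overlapping ranges.

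The Unc5 receptors, through which netrins repel, split in direction. Unc5a was at 7.08, 8.61 and 11 FPKM (lowest, median, highest) in the white matter blocks and at 1.89, 2.32 and 2.73 in the cord, a log2 fold change of 1.93. Unc5b was at 2.49, 3.45 and 5.42 against 10.1, 11.6 and 14.5 (difference -1.72 on the log2 scale with SE 0.09, adjusted p = 1.19e-12 by limma). Neither gene overlapped between the tissues. Unc5d was higher (0.56) and Unc5c lower (-0.35), both with overlapping ranges. Of the attractive netrin receptors, Dcc was higher by 0.28 on the log2 scale and Neo1 was lower (-0.61), the latter without overlap. Robo3, a Robo receptor of commissural neurons, was at 0.595 to 1.67 FPKM in the 8 white matter libraries and listed at 0.1 in all 12 cord libraries, so no fold change is given. Robo2 was higher by 0.52 and Robo1 had a log2 fold change of -0.36.

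Plexins, the receptors of semaphorins, were split as well, with 5 of 9 higher and 3 lower. Plxna2 (1.02), Plxna1 (0.92) and Plxna4a (0.89), receptors of class 3 and class 6 semaphorins, were higher without overlap. Plxnb3, the receptor of Sema5a, was at 2.83, 5.67 and 7.27 FPKM (lowest, median, highest) in the white matter blocks and at 10.5, 13.5 and 16.0 in the cord, a log2 fold change of -1.47. Nrp2, the co-receptor of Sema3f, had a log2 fold change of -1.33, with overlapping ranges, and Nrp1, the co-receptor of Sema3a, one of 0.13 (limma adjusted p = 0.497). The dot plot by family shows both directions within most families. The tissues also differed in cell markers: all 5 cortical neuron markers were higher and all 6 spinal neuron, all 6 oligodendrocyte and all 3 Schwann cell markers lower in the white matter blocks. The part of these cells in the members' differences was not tested. Without either library that stood apart by its markers, 33 members were higher, and 23 or 25 lower.

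**Figure D2:**
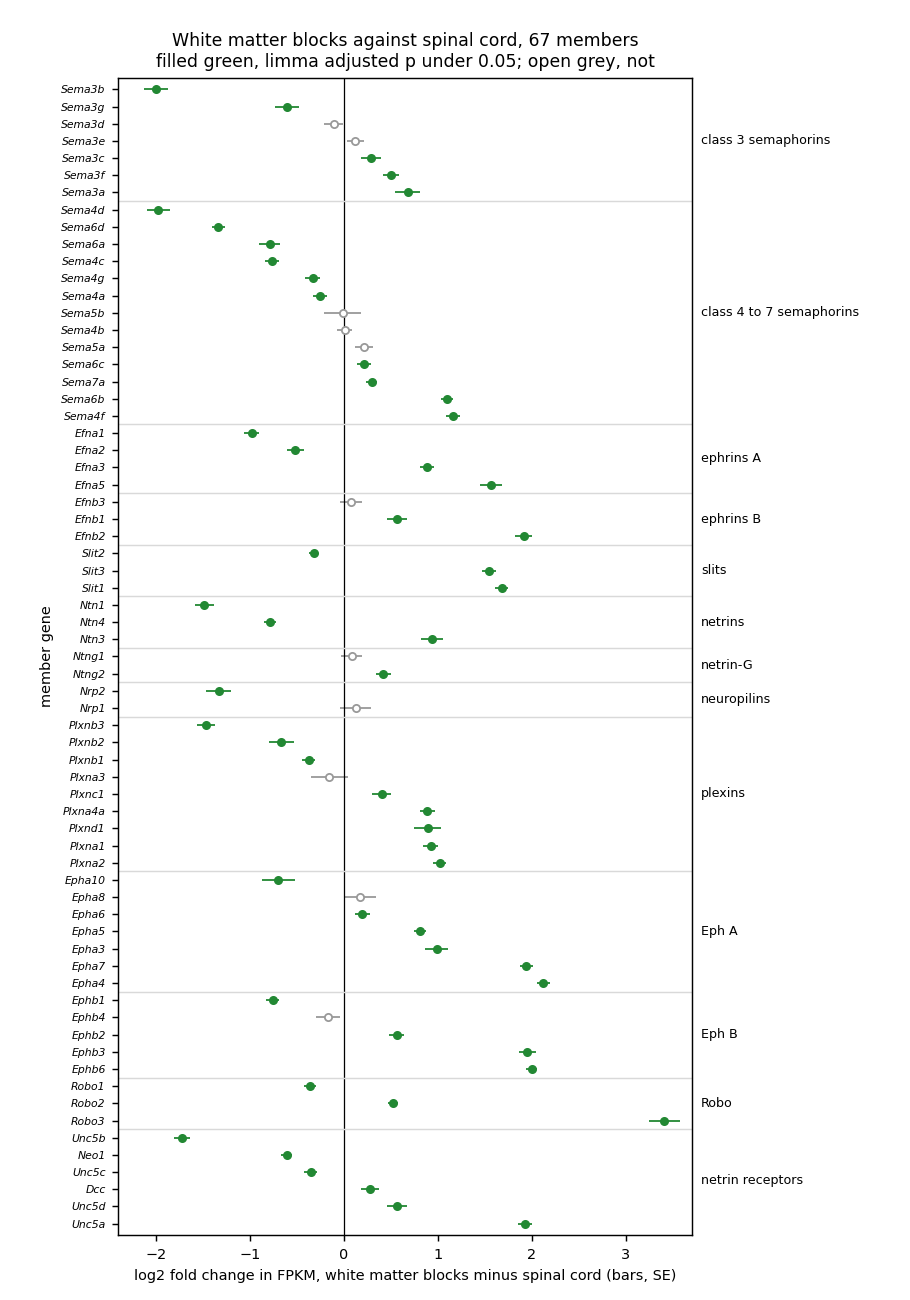
Log2 fold change in FPKM of the 67 members tested, white matter blocks (8 libraries) minus spinal cord (12 libraries), by family, with bars for the SE. Filled green points passed the threshold, 33 to the right of 0 and 23 to the left, and Unc5a and Unc5b lie at opposite ends of the netrin receptors. The place of Robo3 depends on the 0.1 listed in the cord.

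Genes that carry the signal inside the cell or modify it were counted from a list of 68, of which 67 were tested. In this comparison 27 were higher and 30 lower in the white matter blocks, where 25% of all genes were higher and 47.1% lower. Kalrn, a guanine nucleotide exchange factor for small GTPases, had a log2 fold change of 4.12 (52.8 ± 10.5 FPKM, SD, n = 8, against 2.99 ± 0.441, SD, n = 12). Mical2, of the family of enzymes that oxidise actin downstream of plexins, followed with 3.10, and Chn1, a Rac inhibitor that acts below Epha4, with 2.70. Ret, the receptor of glial-derived growth factors and a partner of ephrin A signalling, had a log2 fold change of -4.04, Vav2 of -1.94 and Dpysl3, a collapsin response mediator, of -1.79.

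The second comparison set the lesion (region 4, 4 libraries) against cord rostral and caudal to it (regions 3 and 5, 8 libraries). Of the 9 plexins, 4 were higher at the lesion and 5 were not called, and 21 of the other 22 members that passed were lower. In all, 5 members were higher and 21 lower, where 3.33% of all genes tested were higher and 15.6% lower. Over the members the median difference on the log2 scale was -0.19, and over all genes it was -0.08. By role, ligands made up 14 of the 21 lower members and 1 of the 5 higher ones.

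Plexins were 4 of the 5 higher members. Plxnc1, the receptor of Sema7a, was at 8.19, 6.50, 7.31 and 4.15 FPKM at the lesion (control 1, control 2, stimulated 1, stimulated 2), at 2.40, 2.62, 2.39 and 2.23 rostral to it and at 3.39, 3.14, 3.24 and 4.47 caudal to it. The difference was 1.12 on the log2 scale with SE 0.14 (adjusted p = 0.000380 by limma). The lesion value of stimulated animal 2 lay below the caudal value of the same animal, and the other 3 lesion libraries were above all others. Plxnb2, a receptor of class 4 semaphorins, was at 24.4, 19.4, 20.8 and 15.0 at the lesion, 8.41 to 11 rostrally and 12.8 to 16.6 caudally (difference 0.75 on the log2 scale with SE 0.17, adjusted p = 0.00720 by limma). Plxnd1, a receptor of Sema3e known from vessels, was at 4.54, 3.51, 3.18 and 2.58 at the lesion, 1.42 to 2.14 rostrally and 2.29 to 3.22 caudally, a log2 fold change of 0.64. Plxna1 (0.35) and Ntng2 (0.33), a membrane-anchored netrin-G, were the remaining higher members. The ranges of all 5 overlapped with those of the other cord libraries, and 1.26% of all genes were higher there without overlap. The 7 microglia and macrophage markers summed to 401.7 to 1015 FPKM at the lesion, 145.8 to 231.0 rostrally and 416.2 to 492.6 caudally, and 2 of the 7, Cd68 and Gpnmb, were higher at the lesion. The lowest lesion sum was that of stimulated animal 2, which also had the lowest lesion value of Plxnc1, Plxnb2 and Plxnd1. That animal had the lowest lesion sums of fibroblast and meningeal (39.4 FPKM, others 61.2 to 72.1), Schwann cell, astrocyte and endothelial markers too. The same held for oligodendrocyte progenitor, ependymal and general neuron markers, but not for oligodendrocyte or cortical, striatal and spinal neuron markers. The part of any of these cells in the plexin values was not tested.

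Efna3, an ephrin A, was at 3.46, 3.81, 5.45 and 3.54 FPKM at the lesion, 6.87 to 7.33 rostrally and 5.33 to 6.03 caudally (difference -0.68 on the log2 scale with SE 0.10, adjusted p = 0.000881 by limma). Slit1 was at 2.67, 2.72, 3.03 and 3.18 at the lesion, 4.68 to 5.15 rostrally and 3.41 to 4.33 caudally (difference -0.58 on the log2 scale with SE 0.09, adjusted p = 0.00108 by limma). Its lesion values lay below all other cord values, and those of Efna3 did so in 3 of 4 animals. Sema3f (-0.56), Ntng1 (-0.55), Sema4f (-0.52) and Epha6 (-0.48) followed. All 3 slits and 4 of 7 EphA receptors (Epha4, Epha5, Epha6 and Epha7) were lower. Of the 67 members, 12 lay below every other cord library at the lesion, where 8.65% of all genes did. All 5 general neuron markers were lower too, with sums of 721.9 to 918.6 FPKM at the lesion, 1029 to 1286 rostrally and 1164 to 1269 caudally, and their part was not tested.

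The number of lesion calls moved with the animals, for the members and for all genes. Without control animal 1 or control animal 2, 1 member was higher and 4 were lower, while all genes called fell from 2879 to 353 or 262. The log2 fold change of Plxnb2, whose call was lost in both, was 0.71 in each. Without stimulated animal 1 also 1 was higher (1.24% of all genes), and without stimulated animal 2 it was 9 (11.5% of all genes). Plxnc1, Efna3 and Slit1 stayed under the threshold in every alternative tried, with limma adjusted p from 6.06e-06 to 0.0303 for Plxnc1. Of the signalling genes, 2 were higher, Mical1 (0.78) and Srgap2 (0.27), and 11 lower, where 3.33% and 15.6% of all genes were. The lower ones were led by Chn1 (-0.51), the adhesion molecule L1cam (-0.48) and Crmp1 (-0.47), a collapsin response mediator.

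In the third comparison, cord caudal to the lesion (region 5) was set against cord rostral to it (region 3), 4 libraries each. Of the 7 class 3 semaphorins, which are secreted, 3 were higher caudally and 4 were not called, and 2 EphA receptors were lower. In all, 5 members were higher, all of them ligands, and 2 lower, both receptors, where 2.77% of all genes tested were higher and 1.55% lower. Over the members the median difference on the log2 scale was 0.00, and over all genes it was 0.11. Quantile normalization moved the latter to -0.02 and gave 5 members (2.86% of all genes) higher and 8 (4.43%) lower. Upper-quartile scaling gave 5 (2.75%) and 9 (4.93%). With the animal as a block, 9 members (4.05% of all genes) were higher and 3 (2.04%) lower, and with 1 difference per animal 8 (11% of all genes) and 3 (2.02%), the first of which is close to the share of all genes.

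Sema3b was at 14.2, 11.7, 20.6 and 19.1 FPKM caudally (control 1, control 2, stimulated 1, stimulated 2) and at 6.60, 5.85, 6.76 and 6.67 rostrally (difference 1.31 on the log2 scale with SE 0.20, adjusted p = 0.00173 by limma). At the lesion it was at 11.3, 11.1, 9.72 and 7.68. All caudal values were above all lesion and rostral values, and the 2 highest caudal values were those of the stimulated animals. Sema3d was at 5.40, 5.30, 5.41 and 6.60 caudally and 3.35 to 3.77 rostrally (log2 fold change 0.68), and Sema3c at 9.45, 7.46, 9.39 and 11 against 5.16 to 6.76 (0.65). Efnb1 (0.66) and Slit3 (0.48) were the other higher members, so that 3 of the 7 class 3 semaphorins were among the 5. Epha6 was at 5.88, 5.77, 4.99 and 5.31 caudally and 7.98, 9.94, 7.67 and 7.60 rostrally (difference -0.59 on the log2 scale with SE 0.13, adjusted p = 0.0133 by limma), and Epha5 one of -0.36. The highest Epha6 value was in region 3 of control animal 2, the library with 11.8 FPKM of Slc17a7 where the other rostral libraries had 0.689 to 2.78. The ranges of these 7 members did not overlap, as was so for 12 members in the higher and 11 in the lower direction, against 20.5% and 5.02% of all genes.

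Schwann cell markers moved with position along the cord. The 3 markers summed (Prx, Pmp2 and Ncmap) were all higher caudally, and their sums were 3.76 to 10.0 FPKM in region 3, 12.7 to 18.8 in region 4 and 13.8 to 33.8 in region 5. Prx, a scaffold protein of Schwann cells, was at 5.69, 4.49, 12.9 and 11.4 FPKM in region 5 (control 1, control 2, stimulated 1, stimulated 2). The part of these cells in the semaphorin values was not tested. Of the signalling genes, Mical1 was the only one to pass (0.97, higher caudally). In all 7 microglia and macrophage markers every caudal value lay above every rostral one, and none of them passed. The fibroblast and meningeal markers summed to 27.4 to 41.1 FPKM rostrally and 48.0 to 150.7 caudally, with log2 fold changes above 0 for all 5 tested, none of which passed, and their part in the semaphorin values was not tested. Without control animal 1, control animal 2 or stimulated animal 1, 1 member was higher and 0 were lower in limma. Of all genes, 0.237% to 0.552% were higher and 0.112% to 0.388% lower in these fits (2223 to 3269 genes at p under 0.05 before adjustment). Without stimulated animal 2, 7 members and 5.4% of all genes were higher, and 4 members and 2.74% were lower. Sema3b stayed under the threshold in every alternative (limma adjusted p from 0.000515 to 0.0417).

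**Figure D3:**
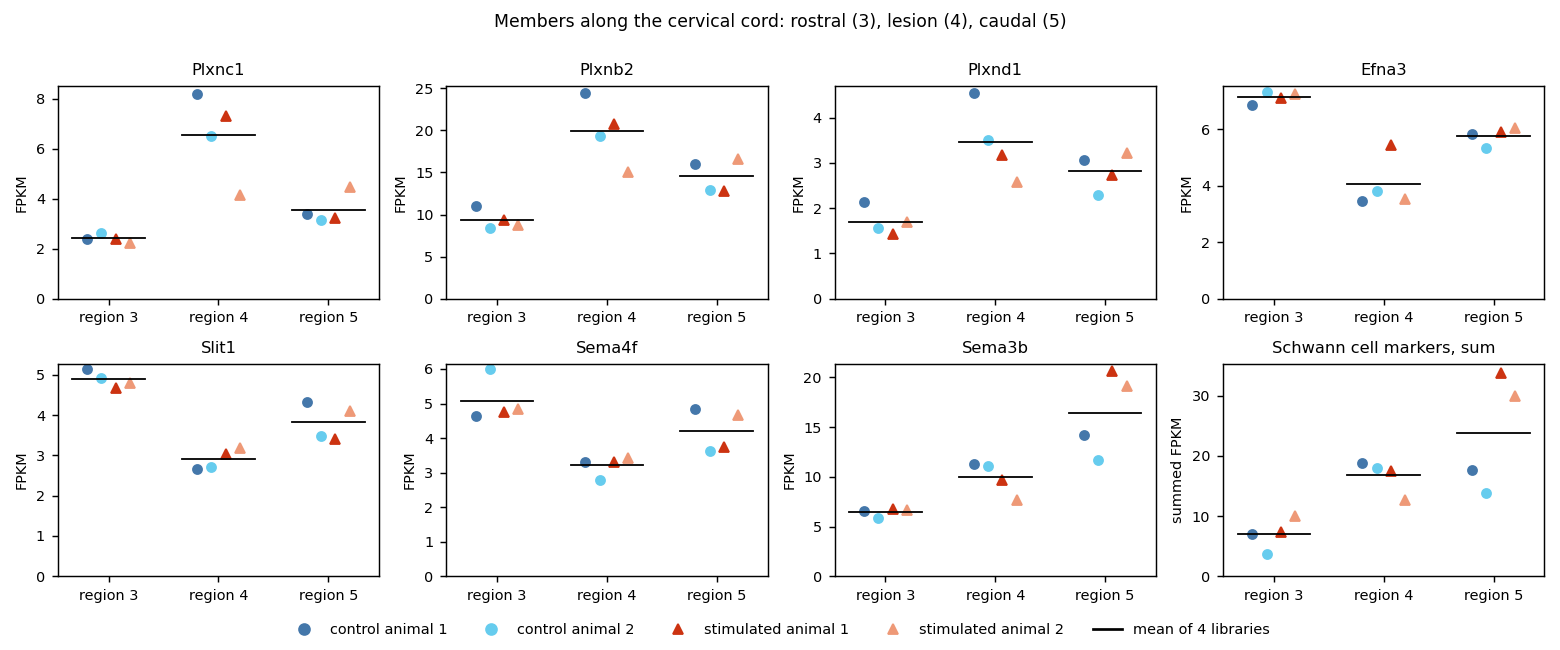
FPKM of 7 members and the summed FPKM of 3 Schwann cell markers in cord rostral to the lesion (region 3), at the lesion (region 4) and caudal to it (region 5), 1 point per animal and a line for the mean of 4 libraries. Plxnc1 and Plxnb2 peak at the lesion in 3 of 4 animals, Slit1 is lowest there in all 4, and Sema3b and the Schwann cell sum are highest caudally in the stimulated animals.

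The fourth comparison set the tissue under the array (region 1) against its counterpart in the opposite hemisphere (region 2), 4 libraries each. The array was implanted into the cortex above region 1 in stimulated and control animals alike. In all, 9 members were higher and 1 lower in region 1, where 6.86% of all genes tested were higher and 1.76% lower. In 6 members every region 1 value lay above every region 2 value and in 1 below, against 4.4% and 3.16% of all genes. The members had a median log2 fold change of 0.10 and all genes one of 0.06. Quantile normalization moved the latter to -0.05 and gave 9 members (6.2% of all genes) higher and 3 (5.53%) lower. With 1 difference per animal, 5 members were higher and 1 lower, close to the 7.17% and 1.65% of all genes.

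Ligands made up 6 of the 9 higher members. Sema6a, a membrane semaphorin that binds Plxna2 and Plxna4, was at 9.01, 7.68, 7.08 and 8.15 FPKM in region 1 (control 1, control 2, stimulated 1, stimulated 2) and at 4.60, 3.75, 3.22 and 6.73 in region 2 (difference 0.85 on the log2 scale with SE 0.18, adjusted p = 0.00813 by limma). Efna1 was at 1.65, 1.77, 2.29 and 1.95 against 1.03, 1.04, 1.03 and 1.35 (log2 fold change 0.78). Both genes were higher in region 1 of every animal, without overlap. Sema4d was at 13.2, 12.0, 13.3 and 14.8 against 7.69, 6.21, 7.75 and 13.3 (0.67), and the ranges overlapped through the region 2 library of stimulated animal 2. Sema4g (0.63), Sema3d (0.52) and Sema6d (0.45) were the other higher ligands.

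Receptors higher in region 1 were Nrp2 (log2 fold change 0.81), Plxnb3 (0.73) and Unc5b (0.67). Nrp2 was at 2.92, 2.56, 3.09 and 4.53 FPKM in region 1 and at 1.45, 1.66, 1.46 and 3.15 in region 2, and the last value overlapped with region 1. Plxnb3 was at 6.08, 5.95, 7.27 and 5.84 against 3.62, 2.83, 3.60 and 5.49, without overlap. Ephb3 was the lower member, at 2.66, 2.78, 3.04 and 2.12 against 4.76, 3.87, 4.59 and 3.91 (difference -0.70 on the log2 scale with SE 0.15, adjusted p = 0.00859 by limma). Oligodendrocyte markers were higher in region 1 in 5 of 6 cases (sums 1403 to 2805 FPKM against 671 to 1297), as were 5 of 5 fibroblast and 3 of 7 microglia and macrophage markers (sums 30.8 to 151.9 against 8.28 to 46.3, and 142.3 to 406.7 against 50.3 to 261.7). Their part in the members' values was not tested.

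The count moved with every animal. Without stimulated animal 1, 0 members were higher and 0 lower in limma, where 26 of all genes passed (1885 at p under 0.05 before adjustment), and without stimulated animal 2, 16 members and 21.6% of all genes were higher and 1 member and 2.52% lower. Without the region 2 library of stimulated animal 2 alone, 17 members and 20% of all genes were higher and 1 member and 3.53% lower. Without control animal 1 or 2, 2 or 1 members and 0.46% or 0.368% of all genes were higher. Of the signalling genes, 8 were higher and 3 lower, where 6.86% and 1.76% of all genes were. The higher ones were led by Draxin, a secreted netrin and Dcc binding protein (2.30), Met (0.97) and Chn2 (0.87). In region 2 Draxin was listed at 0.1 FPKM in all animals but stimulated animal 2 (0.263), so its fold change depends on that lowest value. In region 1 it was at 0.501, 0.428, 1.71 and 0.417 (control 1, control 2, stimulated 1, stimulated 2). The lower ones were Rnd1 (-0.62), Chn1 (-0.50) and Rock2 (-0.29).

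Stimulation was compared within each region, 2 stimulated against 2 control animals. No member passed the threshold in limma in any of the 5 regions, where 0 to 3 of all 15210 genes did (0% in regions 1 to 4 and 0.0197% in region 5). At an unadjusted p under 0.05 the members numbered 8, 1, 2, 1 and 1 from region 1 to region 5, where 5.44%, 1.41%, 3.43%, 2.24% and 3.59% of all genes were. An exact permutation test of 2 against 2 animals cannot go below a two-sided p of 0.333. The median log2 fold change of the members was -0.18, 0.01, -0.10, 0.04 and 0.02 in regions 1 to 5, beside -0.03, 0.08, -0.07, 0.00 and 0.05 over all genes. None of the 67 signalling genes tested passed either, with 4, 0, 5, 1 and 1 at an unadjusted p under 0.05.

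In region 1, under the array, 47 of the 67 members had a log2 fold change below 0. In 30 members both stimulated animals were below both controls and in 9 both were above, against 19.5% and 21.2% of all genes. Plxna4a was at 16.4 and 15.3 FPKM in the controls and at 11.5 and 10.1 in the stimulated animals (difference -0.56 on the log2 scale with SE 0.12, adjusted p = 0.712 by limma). Epha6 was at 8.02 and 7.95 against 5.84 and 5.43 (-0.50). Plxnb2 was at 9.48 and 9.01 against 11.8 and 13.8 (difference 0.47 on the log2 scale with SE 0.13, adjusted p = 0.712 by limma). The arms did not overlap in these 3 genes, and none passed the threshold. Slit1, Unc5d, Unc5a, Ephb6 and Sema4f made up the 8 members with an unadjusted p under 0.05, with log2 fold changes of -0.37, -0.68, -0.48, -0.32 and -0.36. All 5 cortical neuron markers were also lower without overlap (sums 299.4 and 260.5 FPKM in stimulated animals against 373.8 and 382.6 in controls), and 6 of 7 microglia and macrophage markers were higher without overlap (272.0 and 406.7 against 148.9 and 142.3). None of these markers passed the threshold, and their part in the members' values was not tested.

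**Figure D4:**
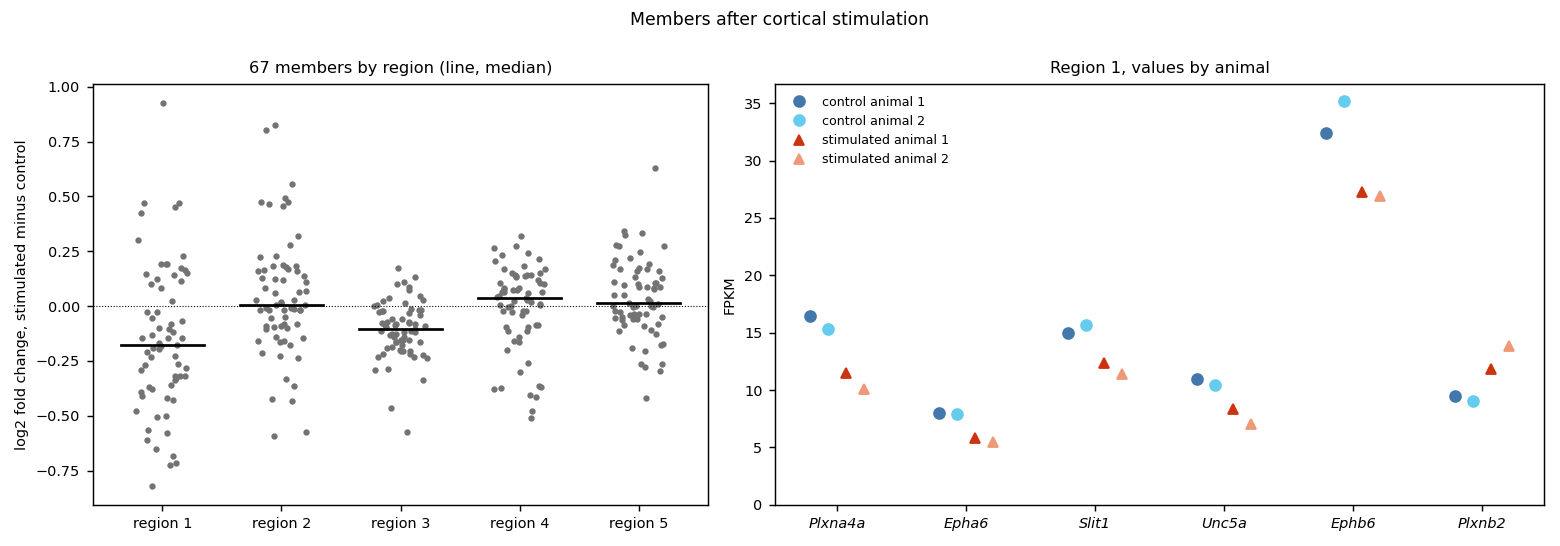
Left, log2 fold change (stimulated minus control) of the 67 members tested in each region, with a line for the median. Right, FPKM of 6 members in region 1 by animal, where Plxna4a, Epha6, Slit1, Unc5a and Ephb6 were lower and Plxnb2 higher in both stimulated animals, and none of them passed the threshold.

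The effect in region 1 was set against that in region 2 by differences within each animal. No member passed in limma (smallest adjusted p = 0.883), and 8 had an unadjusted p under 0.05, where 0% of all genes passed and 3.78% were under 0.05 unadjusted. Plxna4a, Slit1 and Epha6 had differences of -0.47, -0.48 and -0.59 on the log2 scale, with SE of 0.12, 0.13 and 0.16. In region 2 itself, where 20.2% of all genes were higher and 6.77% lower without overlap, the 3 members with the smallest p among those without overlap were Sema3g, Unc5d and Sema5b. Sema3g was at 2.51 and 2.32 FPKM in the controls and at 1.61 and 1.64 in the stimulated animals (log2 fold change -0.57, limma adjusted p = 0.949). Unc5d was at 6.61 and 5.57 against 4.81 and 4.21 (-0.43), and Sema5b at 1.32 and 1.03 against 1.66 and 2.48 (0.80).

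In the rostral cord (region 3), 54 of 67 members had a log2 fold change below 0, and 26 were lower and 3 higher without overlap, against 24.7% and 5.14% of all genes. Plxna4a was at 8.04 and 8.81 FPKM in the controls and at 7.06 and 6.73 in the stimulated animals (-0.29, limma adjusted p = 0.956). Unc5b was at 13.5 and 12.3 against 11 and 10.1 (-0.29), and Efna5 at 1.87 and 1.93 against 1.23 and 1.54 (-0.46). At the lesion, 40 of 67 members had a log2 fold change above 0 and 26 below 0, and 15 were higher and 6 lower without overlap. The 3 with the smallest p among those without overlap were all lower. Plxna1 was at 9.44 and 7.54 against 6.29 and 5.59 (-0.51), Plxnd1 at 4.54 and 3.51 against 3.18 and 2.58 (-0.48) and Sema3b at 11.3 and 11.1 against 9.72 and 7.68 (-0.37). The arms did not overlap in these 6 genes (at the lesion, 7.69% of all genes were lower and 12.5% higher in this way), and none passed the threshold. All 7 microglia and macrophage markers at the lesion had log2 fold changes below 0 as well (sums 791.0 and 401.7 FPKM in the stimulated animals against 1015 and 746.8 in the controls), and their part was not tested.

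In the caudal cord (region 5), Sema3b was at 14.2 and 11.7 FPKM in the controls and at 20.6 and 19.1 in the stimulated animals (difference 0.63 on the log2 scale with SE 0.13, adjusted p = 0.969 by limma). The sign was opposite to that at the lesion, and the difference between these effects was not tested. All 7 class 3 semaphorins had a log2 fold change above 0 in region 5, from 0.08 to 0.63, and 4 of them did not overlap, against 18.5% of all genes (6.07% were lower). Sema6b was at 7.34 and 6.81 against 5.85 and 5.80 (-0.28), and Plxnb3 at 13.7 and 12.5 against 15.1 and 15.1 (0.21). All 3 Schwann cell markers were higher in both stimulated animals (sums 33.8 and 30.0 FPKM against 17.7 and 13.8), and all 5 fibroblast and meningeal markers tested had log2 fold changes above 0 (sums 90.6 and 150.7 against 51.9 and 48.0). None of these markers passed the threshold, and their part in the Sema3b values was not tested.

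Plxna3, a receptor of class 3 semaphorins, stood out by animal and is described although it was chosen after its values were seen. It was at 1.83, 2.12, 1.85, 1.89 and 2.19 FPKM in regions 1 to 5 of stimulated animal 1 and at 3.10 to 4.50 in the other 15 libraries, means of 1.98 ± 0.164 (SD, n = 5 libraries) and 3.74 ± 0.383 (SD, n = 15 libraries). The ratio of these means was 1.89. No other member separated 1 animal from the other 3 in all 5 regions. Among all 15210 genes tested, 3 were below and 4 above all other animals in every region of stimulated animal 1, with 2 and 7 in control 1, 6 and 2 in control 2 and 6 and 3 in stimulated 2. Its stimulation values therefore mix 1 low and 1 ordinary animal in each region.

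**Figure D5:**
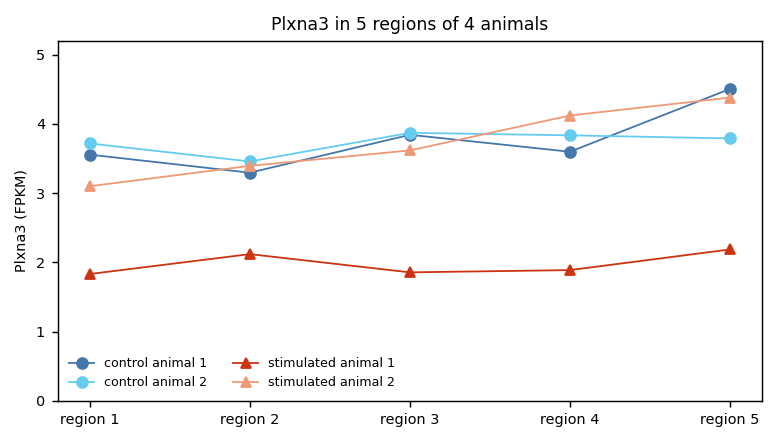
Plxna3 in FPKM in the 5 regions, 1 line per animal. Stimulated animal 1 lies between 1.83 and 2.19 in all regions and the other 3 animals between 3.10 and 4.50.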

How the data were processed

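RNA was sequenced from 5 regions of 4 rats in 20 libraries (stranded TruSeq after ribosomal depletion). The authors aligned the reads to Rnor_6.0 with TopHat2 2.1.0 and made gene values with Cufflinks 2.2.1, after FastQC and MultiQC 1.6. The library protocol in the labels also cites the aligner STAR. The authors deposited FPKM values, with values under 0.1 raised to 0.1 and without further scaling. The annotation version is not given in the sources used here, and without a stated strand setting, overlapping and antisense genes are uncertain. Every column carried the title of its sample, with 0 columns left over. From the steps between low values, relative library depth differed at most 1.23-fold. The depth behind a gene is unknown, so only the spread between animals describes precision.

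Values were log2-transformed after flooring at 0.1, and genes reaching 1 FPKM in any library were kept. Limma 3.58.1 in R 4.3.3 (lmFit, eBayes with trend) was fitted with region means on all 20 libraries for regions, on the 4 libraries of a region for stimulation, and on differences within animals for the difference of effects. Benjamini-Hochberg adjustment ran over 15210 genes. Scripts were tested on simulated data. Other steps used Python 3.11.15, pandas 2.3.3, numpy 2.4.6, scipy 1.17.1 and matplotlib 3.10.9. The members and lists were chosen with earlier results of these data known.

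Named members were the 6 with the largest absolute log2 fold change in each direction among those past the threshold in each region comparison, for stimulation the 3 with the smallest p without overlap and at least 1 FPKM in a group, and the most abundant of each family. Of the signalling list, the 3 largest in each direction were named. Further members named were chosen after their values were seen. Ngef, Grb4 and Dock1 of that list were not analysed here, and 1 marker gene is not reported here.

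The labels tie the 5 libraries of an animal by arm and number. Deviations from the region mean correlated within animals, on average at 0.59 between hemispheres, 0.21 between rostral cord and lesion, 0.12 between rostral and caudal cord and 0.03 between lesion and caudal cord, so the animal was used as a block in alternatives. Control and stimulated animals share only a number.

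Alternatives were log2(FPKM + 1), no filter or a filter of 4 libraries, quantile normalization, upper-quartile scaling, eBayes without trend, 1 model of all libraries, blocks and leaving out each animal. Crossed pairs and leaving out single libraries were added after seeing the data.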

Additional observations from a re-analysis of the deposited data

Results flagged for a closer look

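For the 67 members tested, the 4 libraries of each region were searched for 1 library whose gap to the nearest other exceeded Dixon's critical value. In 332 groups of 4 values that were not all equal, 20 were found, where chance alone gives about 1 in 20, and their cause was not tested.

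In region 2, 5 of them were the library of stimulated animal 2. It had 12.1 FPKM of Nrp1 (12.07, others 4.45 to 5.41), 11.5 of Plxnb2 (others 5.57 to 6.28), 3.15 of Nrp2 (others 1.45 to 1.66), 2.82 of Sema3b (others 1.85 to 1.96) and 1.35 of Efna1 (1.346, others 1.03 to 1.04). The same library had 261.7 FPKM of summed microglia and macrophage markers (others 50.3 to 57.6). It also had the highest region 2 sums of fibroblast and meningeal (46.3, others 8.28 to 12.2) and astrocyte markers (1398, others 589 to 741). Its sum of general neuron markers was the lowest (1126, others 1220 to 1471).

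In region 3, 4 were the library of control animal 2, with 9.94 FPKM of Epha6 (9.941, others 7.60 to 7.98), 5.99 of Sema4f (others 4.64 to 4.85), 4.14 of Epha7 (4.142, others 3.06 to 3.15) and 3.51 of Ntng1 (3.514, others 2.29 to 2.44). It also had 11.8 FPKM of Slc17a7 (others 0.689 to 2.78). Control animal 1 had 17.4 FPKM of Neo1 (17.41, others 14.8 to 15.0) and 5.18 of Nrp2 (5.179, others 4.17 to 4.25) there.

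Plxna3 was low in stimulated animal 1, at 2.12 FPKM (2.118) in region 2 (others 3.29 to 3.46) and at 1.85 (1.855) in region 3 (others 3.62 to 3.87). Robo1 was low in region 1 of stimulated animal 2 at 4.51 FPKM (4.513, others 6.01 to 6.14), and Sema3a in region 3 of that animal at 2.76 (2.756, others 3.09 to 3.14). Control animal 1 had 2.68 FPKM of Ntn4 (2.683, others 2.19 to 2.24) in region 2 and 4.74 of Epha10 (4.743, others 3.43 to 3.62) in region 5. The remaining 3 were Sema5b at 5.30 FPKM (5.303) in region 1 of stimulated animal 2 (others 1.73 to 2.11), Plxnb3 at 7.27 (7.268) in region 1 of stimulated animal 1 (others 5.84 to 6.08) and Sema3d at 6.60 (6.605) in region 5 of stimulated animal 2 (others 5.30 to 5.41).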

How the results depend on the processing

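For white matter blocks against cord, the counts of members kept within 1.5 times under every alternative tried. The 6 members of largest change in each direction kept their calls in all of them, and the calls of other members were not followed. The alternatives included 1 value per animal, and over all of them the highest limma adjusted p was 2.29e-05 for Epha4 and 3.17e-05 for Ephb6. For the other region comparisons the counts moved. At the lesion, without the filter on low values 2 members were higher (1.48% of all genes), and with upper-quartile scaling 13 were lower (11.9%). With each animal left out, the lesion counts ran from 1 to 9 higher and 4 to 20 lower (0.263% to 11.5% and 1.46% to 16.3% of all genes). Caudally against rostrally, 3 were higher and 1 lower without the filter (0.946% and 0.539% of all genes). Lower members numbered 8 after quantile normalization and 9 with upper-quartile scaling (4.43% and 4.93% of all genes). The animal as a block gave 9 higher and paired differences of 1 value per animal gave 8. With each animal left out, 1 to 7 were higher and 0 to 4 lower (0.237% to 5.4% and 0.112% to 2.74% of all genes). For region 1 against region 2, 5 were higher with 1 paired value per animal, 17 without the region 2 library of stimulated animal 2, and 0 to 16 with each animal left out. Lower members there numbered 2 on the log2(FPKM + 1) scale, without the filter and with eBayes without trend (1.94%, 0.693% and 1.75% of all genes). They numbered 3 after quantile normalization and with upper-quartile scaling (5.53% and 6.12% of all genes), and 0 to 1 with each animal left out (0.0855% to 2.52%). Fewer libraries also leave fewer degrees of freedom, and the cause of the other moves was not tested.

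For the members named by largest change in the region comparisons, no direction reversed. With an animal left out, the call was lost in 20 of 44 values at the lesion and 19 of 28 in the caudal comparison. In the hemisphere comparison it was lost in 19 of 42 values, which also include the fits that left out a single library. Under the other settings it was lost in 7 values of each comparison.

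Control and stimulated animals share only a replicate number. Deviations of same-numbered libraries correlated at -0.21, -0.10, -0.11, 0.32 and -0.16 in regions 1 to 5. With the replicate number as a block, 0 members and 0 genes passed in regions 1 to 4, and 0 members and 443 genes in region 5. Crossing the pairs, which was tried only once these correlations were known, gave 118 genes in region 4, 0 in the other regions and 0 members in any. For the difference between regions 1 and 2, the block gave 17 genes and 0 members. Under every other alternative for stimulation that kept 2 animals in each arm, 0 members passed, where 0 to 22 of all genes did. Fits without an animal leave 1 animal in an arm and are not counted here. The number of animals limits these comparisons, since 2 against 2 leaves 2 residual degrees of freedom.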
